A study of Mus musculus with 8 samples.

Results

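Type I interferon signalling and response was followed at 9 genes in maps of open chromatin from hippocampal microglia: the receptor genes Ifnar1 and Ifnar2, the transcription factor genes Stat2, Irf9 and Irf7, the effector genes Rsad2, Isg15 and Ifit3, and the negative regulator gene Usp18. They are 9 of 21887 protein-coding genes of the mouse annotation. The rule that picks them uses no measured value, but they were chosen with earlier results of these data known. For each gene, the peaks of every library were collected in a locus, which is the gene span with 20 kb added on each side. The libraries came from mice labelled FGR (4 libraries) and from mice labelled Ctrl (4 libraries), where the series title speaks of intrauterine growth restriction. All of them were 3 weeks old and carried the Tmem119-tdTomato+/- reporter, which marks microglia, so the FGR and Ctrl groups share the reporter. The sources used here do not give how growth restriction was brought about, the sex of the mice, or the number of animals behind a library. Each p-value by limma is set against the spread between libraries, moderated by a trend over all tested loci, and this spread may be technical. Fisher's exact test compares calls per library, estimates no spread and takes the libraries as independent units.

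Microglia are the resident macrophages of the brain. Type I interferons bind a receptor made of the Ifnar1 and Ifnar2 chains, whose Janus kinases phosphorylate STAT proteins. STAT2 and IRF9 then act within the factor ISGF3, which binds interferon-stimulated response elements in the promoters of target genes. Rsad2, Isg15 and Ifit3 are such targets, as are Irf7, which drives further interferon production, and Usp18, which dampens the receptor. In ATAC-seq a transposase cuts accessible DNA, and each stretch where cuts stand out from the surroundings is listed as a peak.

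Promoter sequences of 8 of the 9 genes were read from RefSeq on GRCm38.p6, the assembly with the coordinates of mm10. The sequences of 5 promoters are shown because they span what was seen at the gene starts, with a peak in all 8 libraries at Ifnar1 and Stat2, in some at Rsad2, and in none at Isg15 and Ifit3. Each runs 5′ to 3′ over the 250 bases before the annotated start, and capitals mark the core of the interferon-stimulated response element. The letters searched were GAAA, any 2 bases and GAAA again, or on the other strand TTTC, any 2 bases and TTTC again. The Ifnar1 sequence is chr16:91484965-91485214 on the plus strand and holds no such core. The Stat2 sequence, chr10:128270248-128270497 on the plus strand, holds 1 core. The Rsad2 sequence, chr12:26456453-26456702 on the minus strand, also holds 1. The Isg15 sequence, chr4:156200819-156201068 on the minus strand, holds 3 cores that overlap in a single run. The Ifit3 sequence, chr19:34583279-34583528 on the plus strand, holds 2 separate cores.
Ifnar1: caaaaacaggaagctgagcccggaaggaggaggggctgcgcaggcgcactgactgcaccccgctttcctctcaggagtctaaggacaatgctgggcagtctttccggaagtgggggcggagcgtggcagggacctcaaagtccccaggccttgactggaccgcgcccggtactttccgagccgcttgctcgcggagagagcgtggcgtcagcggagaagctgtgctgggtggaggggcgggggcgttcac
Stat2: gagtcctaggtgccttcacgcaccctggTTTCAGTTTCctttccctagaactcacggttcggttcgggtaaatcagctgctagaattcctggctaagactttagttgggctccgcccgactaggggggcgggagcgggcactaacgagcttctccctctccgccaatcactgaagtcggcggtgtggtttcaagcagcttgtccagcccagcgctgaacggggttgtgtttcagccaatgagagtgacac
Rsad2: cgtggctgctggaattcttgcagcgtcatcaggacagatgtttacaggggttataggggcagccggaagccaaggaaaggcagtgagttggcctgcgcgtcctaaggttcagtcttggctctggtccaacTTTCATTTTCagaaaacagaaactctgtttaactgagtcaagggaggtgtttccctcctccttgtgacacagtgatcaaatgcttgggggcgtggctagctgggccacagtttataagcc
Isg15: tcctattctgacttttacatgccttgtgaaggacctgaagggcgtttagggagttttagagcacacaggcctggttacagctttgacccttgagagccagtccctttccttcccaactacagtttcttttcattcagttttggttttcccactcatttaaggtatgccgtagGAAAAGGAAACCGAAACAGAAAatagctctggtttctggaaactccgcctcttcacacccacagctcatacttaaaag
Ifit3: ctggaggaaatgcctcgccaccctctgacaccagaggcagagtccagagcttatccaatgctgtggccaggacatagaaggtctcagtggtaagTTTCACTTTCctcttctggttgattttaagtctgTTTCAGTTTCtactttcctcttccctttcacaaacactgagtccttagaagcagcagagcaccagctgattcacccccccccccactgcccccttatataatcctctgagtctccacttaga

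With the annotated start counted as 0, the core of the Stat2 promoter lay at -222 to -213 and that of Rsad2 at -120 to -111. The run of cores in Isg15 reached from -78 to -57, and the cores of Ifit3 lay at -156 to -147 and -122 to -113. The promoters of Ifnar2, Irf9 and Irf7 held no core in these letters. Over all genes, 594 of 17492 promoters, or 3.40%, held at least 1 core in the window of 300 bases that runs from 250 before to 50 after the start. A match describes the letters only and does not show that a factor binds there.

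The lists held 27209, 23327, 29501 and 26246 peaks in FGR libraries 1 to 4, and 16111, 10862, 22705 and 24195 peaks in Ctrl libraries 1 to 4. The background coverage recovered from the lists ranged from 3.52 to 4.82 extended reads per base in FGR libraries. In Ctrl libraries it ranged from 3.01 to 6.05, and Ctrl 2 had the lowest value of the 8. It ranks depth only if reads were extended alike in all lists, which was not tested. Ctrl 1 and Ctrl 2 also stood apart in their peaks, which were wider (median of 566 and 522 bp, where the other libraries had 353 to 386 bp) and had their summits a median of 138 to 140 bp away from the summits of other libraries. FGR 1 and 3 placed 9.14% of shared summits at the identical base and FGR 2 and 4 placed 7.57% there, against 1.76% to 2.14% in the other pairs among the 6 libraries without displaced summits. Libraries 1 and 2 of each group have lower sample numbers (deposit set 1) than libraries 3 and 4 (deposit set 2). The microglia marker genes Tmem119, Cx3cr1 and Sall1 had a gene-end peak in all 8 libraries, and 70% to 90% of the list of 10 microglia markers had a gene-end peak per FGR library, against 40% to 80% per Ctrl library. P2ry12 had one in 1 of 4 FGR and 0 of 4 Ctrl libraries, and Gpr34 in 0 of 8. Of 50 marker genes of border macrophages, blood leukocytes, neurons, astrocytes, oligodendrocyte lineage or vessel cells, 0 had a gene-end peak in all 8 and 38 had none in any library. Of the 12 between, 6 had it in more FGR and 5 in more Ctrl libraries. The border macrophage marker Cbr2 had it in 4 of 4 FGR and 3 of 4 Ctrl libraries. The vessel marker Flt1 had it in 4 of 4 FGR and 1 of 4 Ctrl libraries. Whether the groups differ in cell composition was not tested. In bulk libraries, a site open in few cells and a site weakly open in many cannot be told apart.

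A gene-end peak, which is a peak within 1 kb of either annotated end of a gene, was called in all 8 libraries at Ifnar1, Ifnar2, Stat2 and Irf9. These 4 of 9 compare with 31.9% of all protein-coding genes. Irf7 and Isg15 had no gene-end peak in any library, as was the case for 42.2% of all genes. Rsad2, Ifit3 and Usp18 lay between, with peaks in some libraries. The gene-end windows take in both ends of a gene, so each case is described by its place below.

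**Figure D1:**
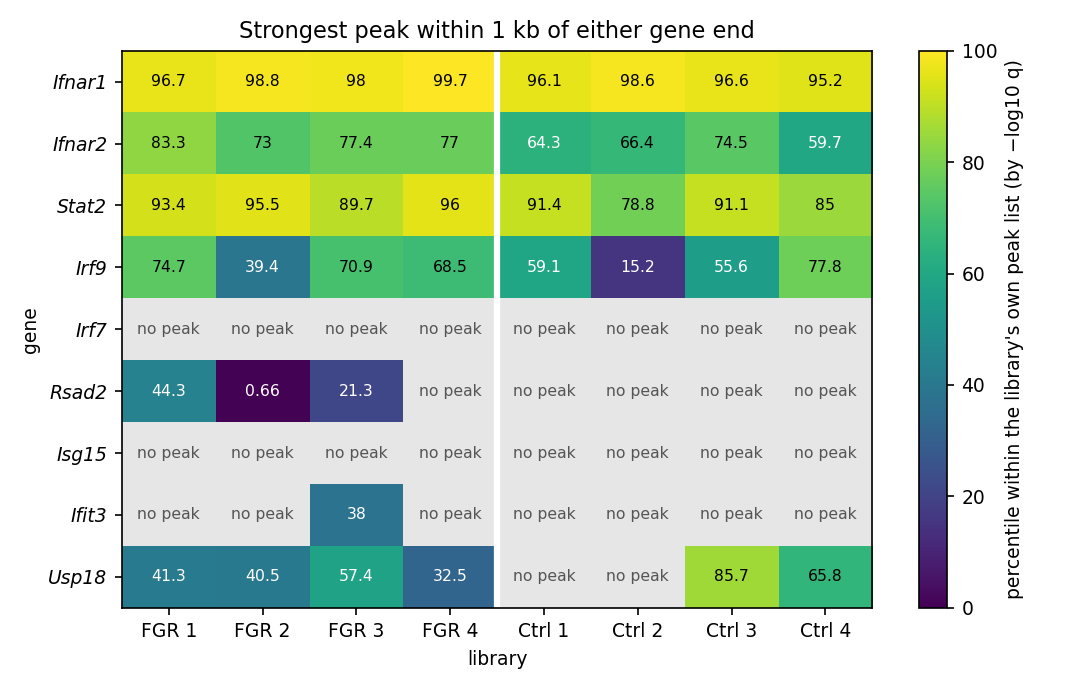
Strongest gene-end peak of each gene (rows) in each library (columns, FGR left of Ctrl), given as its percentile by −log10 q within that library's own peak list; grey cells have no peak. Ifnar1 sits between 95.2 and 99.7 in all 8 libraries, while Irf7 and Isg15 are grey throughout.

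Ifnar1, on the plus strand of chromosome 16 from 91485032 to 91510523, encodes a chain of the interferon receptor and had the strongest gene-start peak of the 9. The start region, at 91484739 to 91485773, was called in all 8 libraries. The authors' fold, the summit pileup over the local background, was 7.18, 8.41, 7.17 and 9.15 in FGR libraries 1 to 4, against 6.16, 7.26, 7.80 and 6.15 in Ctrl libraries 1 to 4. The within-list percentile of −log10 q, which is the share of a library's own peaks with an equal or lower value, was 96.7, 98.8, 98.0 and 99.7 in FGR and 96.1, 98.6, 96.6 and 95.2 in Ctrl. The peak was thus among the strongest 5% of every list, and the folds of the groups overlapped. Its summit lay 103 to 111 bp before the annotated start in the 4 FGR libraries. In the Ctrl libraries it lay 112 and 120 bp before the start in libraries 3 and 4, 39 bp before it in library 2 and 9 bp after it in library 1, the libraries with displaced summits.

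Away from its start, the Ifnar1 locus held a further region called in all 8 libraries, at 91464594 to 91465326. It lies 19706 bp upstream of the gene span. Downstream of the gene, where no protein-coding gene is annotated, stood a cluster of 3 regions. The region at 91522027 to 91522751 was called in 3 of 4 FGR and 4 of 4 Ctrl libraries, and that at 91522931 to 91523289 in 4 of 4 FGR and 2 of 4 Ctrl libraries. The last, at 91527145 to 91527432, lies 16622 bp past the upper end of the gene and was called in 4 of 4 FGR and 0 of 4 Ctrl libraries. Its fold was 2.89, 3.37, 2.70 and 3.77 in FGR libraries 1 to 4, at percentiles of 23.3, 35.7, 26.3 and 60.1 within their lists. It was the single region of the 40 in the 9 loci with this 4 against 0 split, where 0.869% of all 52251 regions had it. The opposite split was seen at 0 of the 40 regions and at 0.0268% of all regions. Fisher's exact test gave p = 0.0286, the smallest that 4 against 4 libraries allow, and an adjusted p of 1 over all regions tested. Its −log10 q was 5.65 and 9.51 in FGR 2 and 4 and 3.91 and 4.12 in FGR 1 and 3, so it no longer counted as called in all 4 once −log10 q of at least 5 was asked for. The same held when every list was shortened to the length of the shortest.

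Ifnar2 encodes the other receptor chain and lies on the plus strand of chromosome 16 from 91372783 to 91405589. Its start region, 91372450 to 91373507, was called in all 8 libraries. The fold there was 4.44, 4.61, 4.48 and 4.72 in FGR libraries 1 to 4, against 3.56, 3.74, 3.36 and 3.82 in Ctrl libraries 1 to 4. The within-list percentile was 65.9, 63.0, 71.4 and 71.7 in FGR and 35.2, 27.6, 24.8 and 59.7 in Ctrl. Every FGR library thus lay above every Ctrl library in both measures. Of the 11 regions of the 9 loci that were called in all 8 libraries, this was the single one with such a gap, where 13.7% of the 8856 regions called in all 8 libraries had it in fold and 9.9% in percentile. The opposite gap, with every Ctrl library above every FGR library, was seen at 0 of the 11, against 0.26% in fold and 0.632% in percentile. No test is given, because the region was picked out after its values were seen and because ranks from lists of different lengths show no change.

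The other strong regions of the Ifnar2 locus lie outside the gene. A region 17088 bp upstream, 91354517 to 91355695, was called in all 8 libraries, at percentiles of 90.0 to 93.5 in FGR and 62.7 to 93.7 in Ctrl libraries. At its far end Ifnar2 is followed by Il10rb, which encodes a chain shared by the receptors for interleukin 10 and type III interferons. The region over the near end of Il10rb, 91405688 to 91407123, begins 99 bp past the end of Ifnar2 and was called in all 8 libraries, as was a region inside Il10rb at 91415081 to 91416088. Because the region over that end lies within 1 kb of Ifnar2, its percentiles set the gene-end value of Ifnar2 in most libraries. A region 5306 bp upstream of Ifnar2, 91366813 to 91367477, was called in 4 of 4 FGR and 1 of 4 Ctrl libraries (Fisher's exact test, p = 0.143, adjusted p of 1). Its fold was 2.74, 3.06, 3.37 and 3.44 in FGR libraries 1 to 4 and 2.72 in Ctrl 4, so the peaks that were called were weak in both groups.

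Stat2 encodes the STAT protein particular to type I and III interferon signalling and lies on the plus strand of chromosome 10 from 128270498 to 128292853. Its start region, 128270134 to 128270911, was called in all 8 libraries and lies within the span of Apof, an apolipoprotein gene that overlaps the Stat2 start. The fold was 7.16, 7.86, 6.40 and 7.41 in FGR libraries 1 to 4, against 5.65, 5.29, 7.12 and 5.21 in Ctrl libraries 1 to 4. The groups overlapped through Ctrl 3 and FGR 3. The summit lay 19 to 58 bp before the start in the 4 FGR libraries. In Ctrl libraries 3 and 4 it lay 57 and 35 bp before the start, and in Ctrl 1 and 2 it lay 89 and 102 bp after it. The response element core shown for Stat2 above lies inside the merged region, but the peaks of FGR 2 and Ctrl 4 begin downstream of it. A region 11130 bp upstream, 128258924 to 128259368, was called in 4 of 4 FGR and 3 of 4 Ctrl libraries and was missed in Ctrl 2. The start of Pan2, a poly(A) nuclease subunit gene at the far end of the locus, had a region called in all 8 libraries at 128302932 to 128304264.

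Irf9 encodes the DNA-binding partner of the STAT proteins in ISGF3. It lies on the plus strand of chromosome 14 from 55603985 to 55610030, and its start region, 55603691 to 55604584, was called in all 8 libraries. The fold was 4.55, 3.57, 3.89 and 4.15 in FGR libraries 1 to 4, against 3.70, 3.34, 3.81 and 4.28 in Ctrl libraries 1 to 4. The highest Ctrl value exceeded 3 of the 4 FGR values. The percentile was as low as 39.4 in FGR 2 and 15.2 in Ctrl 2, the library of each group with the lowest background coverage. Summits lay 128 to 137 bp after the start in FGR libraries. They lay 130 and 143 bp after it in Ctrl 4 and 3, and 63 and 343 bp after it in Ctrl 2 and 1. A stronger region of the locus, 55590596 to 55592166, spans the facing ends of the proteasome activator gene Psme2 and the ubiquitin ligase gene Rnf31, and stood at percentiles of 94.6 to 97.4 in FGR and 87.2 to 98.8 in Ctrl libraries.

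Irf7, a factor that drives transcription of interferon genes and is itself induced by interferon, lies on the minus strand of chromosome 7 from 141263183 to 141266499. No library had a peak over the promoter or within 1 kb of either end. A peak inside the gene, at 141264950 to 141265406, was called in FGR 3 with a fold of 2.36 and in Ctrl 3 with a fold of 3.05, and its near edge lies 1093 bp from the upper end of the gene. The other peaks of the locus were a region in the cadherin gene Cdhr5, called in FGR 2 and 4, and a region in the secretin gene Sct, called in FGR 4. Over the whole locus there were 0, 1, 1 and 2 peaks in FGR libraries 1 to 4, against 0, 0, 1 and 0 in Ctrl libraries 1 to 4. All of these peaks were weak, at percentiles of 1.53 to 32.5.

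**Figure D2:**
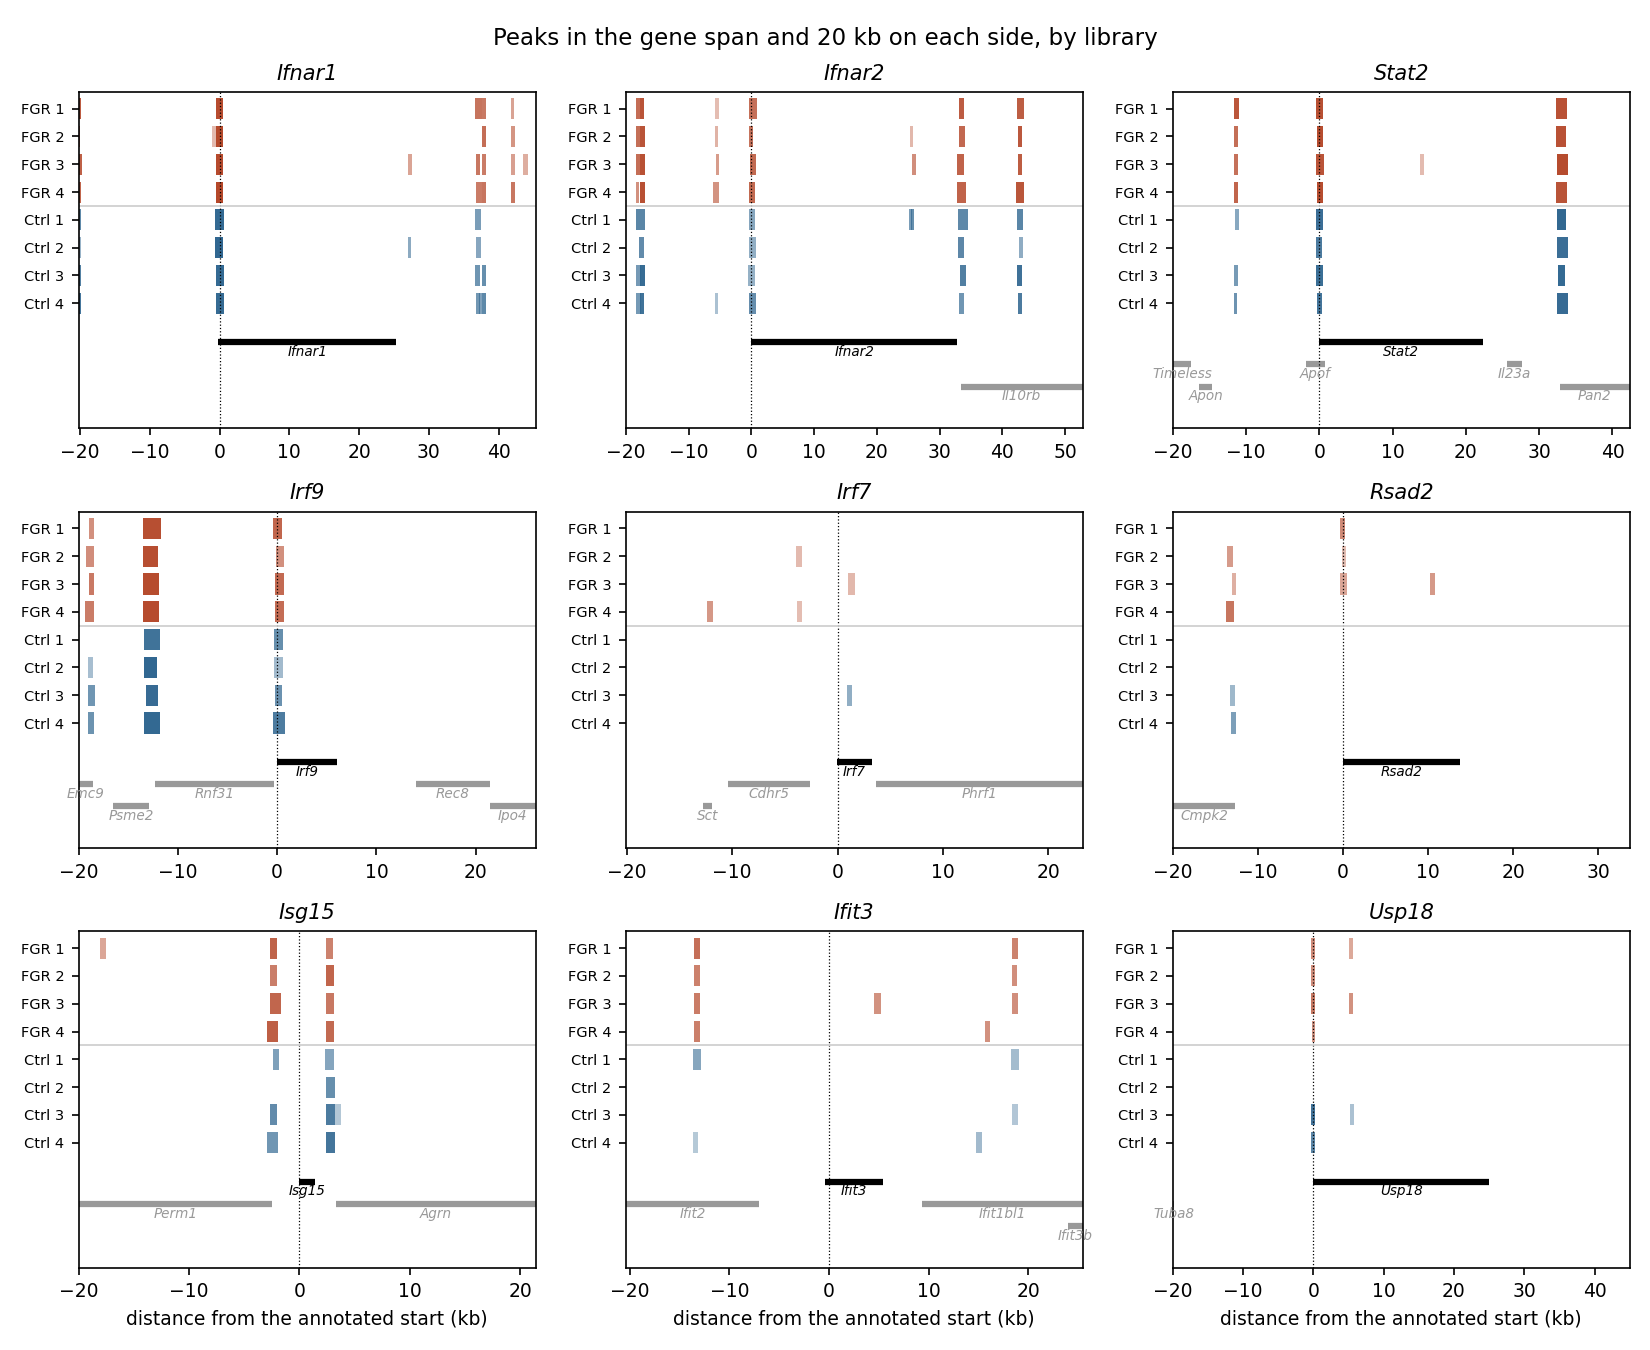
Peaks in each locus by library, FGR rows (red) above Ctrl rows (blue), against distance from the annotated start in kb along the direction of transcription (for Usp18, from its lower gene end); darker bars have a higher within-list percentile, black bars are the 9 genes and grey bars their neighbours. Ifnar1, Ifnar2, Stat2 and Irf9 have a bar at the start in all 8 libraries, and Irf7, Isg15 and Ifit3 in none.

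Rsad2 encodes viperin, an antiviral enzyme, and lies on the minus strand of chromosome 12 from 26442743 to 26456452. Its start region, 26456095 to 26456602, was called in FGR 1, 2 and 3 and in no Ctrl library. The fold was 4.17, 2.98 and 3.26 in those libraries, at percentiles of 44.3, 0.66 and 21.3, and the summit pileup was 20, 13 and 20 extended reads. The peaks were weak, and that of FGR 2 stood 1 read above the smallest summit pileup of its list, which was 12. Rsad2 was the single gene of the 9 whose gene-end calls differed by 3 libraries or more, where 1.21% of all genes differed so towards FGR and 0.174% towards Ctrl. Fisher's exact test gave p = 0.143, and an adjusted p of 1 over the 5685 genes tested. Without Ctrl 1 and 2, the libraries with displaced summits, the count was 3 of 4 FGR and 0 of 2 Ctrl libraries. With lists of equal length it was 0 in both groups. Upstream of Rsad2 lies Cmpk2, a mitochondrial nucleotide kinase gene that is also induced by interferon. The region at its near end, 26469128 to 26470084, was called in FGR 2, 3 and 4 and in Ctrl 3 and 4, so it did not follow the calls at Rsad2.

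Isg15 encodes a ubiquitin-like modifier that is attached to proteins after interferon exposure. It lies on the minus strand of chromosome 4 from 156199424 to 156200818, and no library had a peak over its promoter or within 1 kb of its ends, although the promoter holds 3 response element cores. Regions that were called lie on either side and are nearer to other genes. The region at 156197704 to 156198353, called in all 8 libraries, lies 171 bp from Agrn, the agrin gene, and 1071 bp from Isg15. Its fold was 3.33, 5.03, 3.44 and 4.29 in FGR libraries 1 to 4, against 3.08, 3.98, 4.58 and 4.36 in Ctrl libraries 1 to 4. These values overlapped. The region at 156202641 to 156203635, over an end of Perm1, a gene known from muscle, was called in all FGR libraries and in Ctrl 1, 3 and 4.

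Ifit3 encodes an RNA-binding antiviral protein and lies on the plus strand of chromosome 19 from 34583119 to 34588982, in a cluster of related Ifit genes. Ifit3 and Ifit3b are near-identical copies, so reads of either may have been placed at the other, and calls here are uncertain. No library had a peak over the promoter, although it holds 2 cores. The single gene-end call was a peak of FGR 3 inside the 3′ end of the gene, at 34588224 to 34588563, with a fold of 3.78. The region most often called in the locus, 34570015 to 34570542, lies inside Ifit2, 12577 bp from Ifit3. Its fold was 5.17, 4.94, 4.44 and 4.52 in FGR libraries 1 to 4, against 3.95 in Ctrl 1 and 2.55 in Ctrl 4, with no call in Ctrl 2 and 3. FGR summits in it lay within 2 bp of each other, at 13255 to 13257 bp before the annotated start of Ifit3.

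Usp18, which removes ISG15 from proteins and blocks signalling at the receptor, spans 121245906 to 121270917 on chromosome 6. A region over its lower end, 121245676 to 121246041, was called in all 4 FGR libraries and in Ctrl 3 and 4. The fold was 4.15, 4.39, 4.46 and 3.75 in FGR libraries 1 to 4, against 7.17 and 4.68 in Ctrl 3 and 4. Where called in Ctrl it was thus higher than in any FGR library, and its percentile was 85.7 in Ctrl 3 and 65.8 in Ctrl 4, against 32.5 to 57.4 in FGR. The 2 Ctrl libraries without the call are those with displaced summits and the shortest lists. Within libraries 3 and 4 alone, the peak was called in 2 of 2 FGR and 2 of 2 Ctrl libraries. Summits lay 47 to 56 bp below the gene end in FGR libraries, and 59 and 31 bp below it in Ctrl 3 and 4. With all lists of equal length, the difference in the share of libraries with a gene-end peak, FGR minus Ctrl, was -0.5, against 0.5 with the full lists. Fisher's exact test on the full lists gave p = 0.429 and an adjusted p of 1.

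The number of peaks per locus was then compared between FGR and Ctrl libraries. Over the 9 loci together there were 25, 26, 32 and 25 peaks in FGR libraries 1 to 4, against 18, 14, 23 and 23 in Ctrl libraries 1 to 4. The mean was 27.0 ± 3.37 in FGR and 19.5 ± 4.36 in Ctrl libraries (SD, n = 4 each), so every FGR library had more peaks in these loci than every Ctrl library. The FGR lists were also longer. Per 10000 peaks of the list, the 9 loci held 9.19, 11.1, 10.8 and 9.53 peaks in FGR libraries, against 11.2, 12.9, 10.1 and 9.51 in Ctrl libraries. The mean per 10000 was 10.2 ± 0.964 in FGR and 10.9 ± 1.48 in Ctrl (SD, n = 4 each), and the groups overlapped. With all lists shortened to the length of the shortest, the mean was 14.2 peaks in each group. Without Ctrl 1 and 2 the peak counts were 25 to 32 in FGR against 23 and 23 in Ctrl. The order of the means per 10000 then turned, with 10.2 in FGR and 9.82 in Ctrl.

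**Figure D3:**
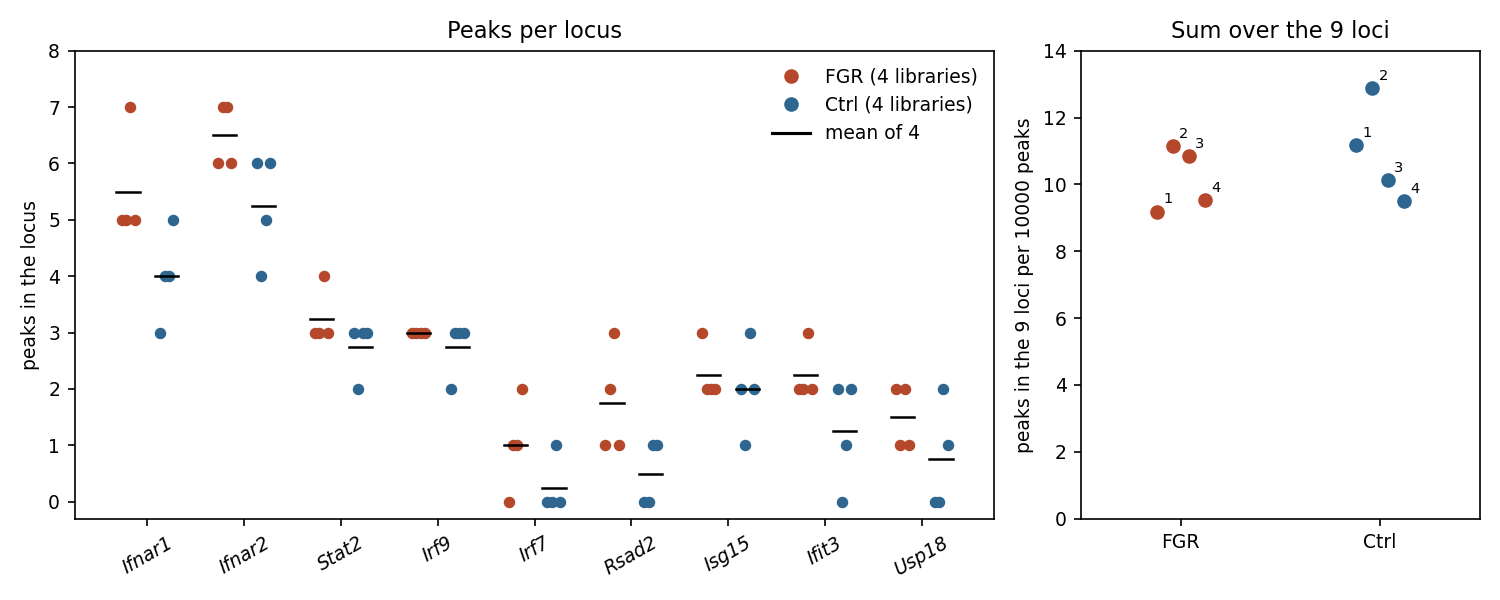
Left, number of peaks in each locus, 1 point per library, FGR (red) left of Ctrl (blue), with bars for the mean of 4; right, peaks in the 9 loci per 10000 peaks of the library, with replicate numbers. FGR libraries lie between 9.19 and 11.1 and Ctrl libraries between 9.51 and 12.9 in the right panel.

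By gene, the ranges of FGR and Ctrl counts met or overlapped at each of the 9 loci. Ifnar1 had 5, 5, 7 and 5 peaks in FGR libraries 1 to 4, against 3, 4, 4 and 5 in Ctrl libraries 1 to 4. Ifnar2 had 6, 7, 7 and 6 peaks in FGR and 6, 4, 5 and 6 in Ctrl. Ctrl 4 alone reached the FGR counts at Ifnar1, and Ctrl 1 and 4 did at Ifnar2. Stat2 had 3, 3, 4 and 3 in FGR and 3, 2, 3 and 3 in Ctrl, Irf9 had 3 in each FGR library and 2, 3, 3 and 3 in Ctrl, and Isg15 had 3, 2, 2 and 2 in FGR and 2, 1, 3 and 2 in Ctrl. Rsad2 had 1, 2, 3 and 1 peaks in FGR and 0, 0, 1 and 1 in Ctrl, and Ifit3 had 2, 2, 3 and 2 in FGR and 2, 0, 1 and 2 in Ctrl. Usp18 had 2, 1, 2 and 1 in FGR and 0, 0, 2 and 1 in Ctrl. At Irf9, Isg15 and Usp18 a Ctrl library equalled the highest FGR count.

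In the limma test on log2 of peaks per 10000, with 0.5 added to each count, 0 of the 5 loci tested among the 9 passed at an adjusted p of 0.05, where 0.0124% of the 8037 loci tested were called higher and 0% lower in FGR. The other 4 had less than the mean of 2 peaks needed for the test. The log2 difference, FGR minus Ctrl, was -0.17 ± 0.24 (SE) at Ifnar1, with an adjusted p of 0.662 by limma. It was -0.29 ± 0.22 at Ifnar2 and -0.38 ± 0.25 at Stat2, with adjusted p of 0.402 and 0.353 by limma. At Irf9 it was -0.47 ± 0.27 and at Isg15 -0.40 ± 0.31, with adjusted p of 0.293 and 0.412 by limma. All 5 differences were below 0 on this scale, as were 77.5% of all loci, and their median of -0.38 stood beside -0.28 for all loci. The sign depends on the scaling: without division by list length all 5 were above 0, and the median over all loci was 0.31. At the other 4 loci the difference from a fit without the filter was 0.39 ± 0.50 at Irf7, 0.69 ± 0.44 at Rsad2, 0.30 ± 0.36 at Ifit3 and 0.39 ± 0.43 at Usp18, with adjusted p between 0.408 and 0.699 by limma. A p above the threshold does not show that the groups are alike, and counts this small leave room for sizeable differences.

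By region, the 9 loci held 40 merged regions. Of these, 11 were called in all 8 libraries, which is 27.5% against 16.9% over all regions. Another 12 were called in a single library, or 30% against 45.9% over all regions. Seen in FGR libraries only were 12 regions, or 30%, against 42.3% over all regions, and seen in Ctrl libraries only were 3, or 7.5%, against 14.9%. Calls differed by at least 3 libraries towards FGR in 3 regions, or 7.5%, against 4.33% over all regions. These are the region past the end of Ifnar1, the region upstream of Ifnar2 and the start of Rsad2. Towards Ctrl there were 0 such regions, against 0.216% over all regions. Fisher's exact test called 0 of the 29 regions that could be tested and 0 of 43395 over the whole table, and at an unadjusted p under 0.05 there were 1 and 468. With 4 against 4 libraries no region can pass that test after adjustment.

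Summit places were also compared within regions shared between libraries. Across the 9 loci FGR 1 and 3 shared 3 of 23 summits at the identical base, and FGR 2 and 4 shared 5 of 21. The other pairs without displaced summits shared 13 of 256, and Ctrl 1 or 2 shared 0 of 171 with the other libraries. Taken singly, those other pairs ranged from 0% to 14.3%, the highest at FGR 1 and 2. FGR 2 and 4, at 23.8%, stood above this range in the 9 loci, and FGR 1 and 3, at 13.0%, did not. Over all shared regions both FGR pairs stood apart, at 9.14% and 7.57% against 1.76% to 2.14% in the other pairs without displaced summits. The FGR libraries within a pair may therefore not be independent. With libraries 1 and 3 averaged in each group, and likewise 2 and 4, 0 of the 5 loci tested passed limma. In Ctrl this pairing has no footing in shared summits. Ctrl 1 and 3 placed 0.00706% and Ctrl 2 and 4 placed 0.0396% of shared summits at the identical base.

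Other genes of the pathway were set beside these 9. The list of 100 genes, by role, matched 98 in the annotation, while Mx1 and Mx2 were not analysed here. Among 8 interferon ligand genes 0 had a gene-end peak in all 8 libraries and 7 had none in any library. Among 7 other receptor and Janus kinase genes, the neighbour Il10rb included, 6 had a peak in all 8, among 10 other STAT and IRF genes 6, and among 8 other negative regulators 5. Among 17 nucleic acid sensors and adaptors there were 7, and among 48 other induced effectors 10. Over all 98 genes 34 had a gene-end peak in every library, which is 34.7% against 31.9% of all protein-coding genes. These counts are a description with no test.

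**Figure D4:**
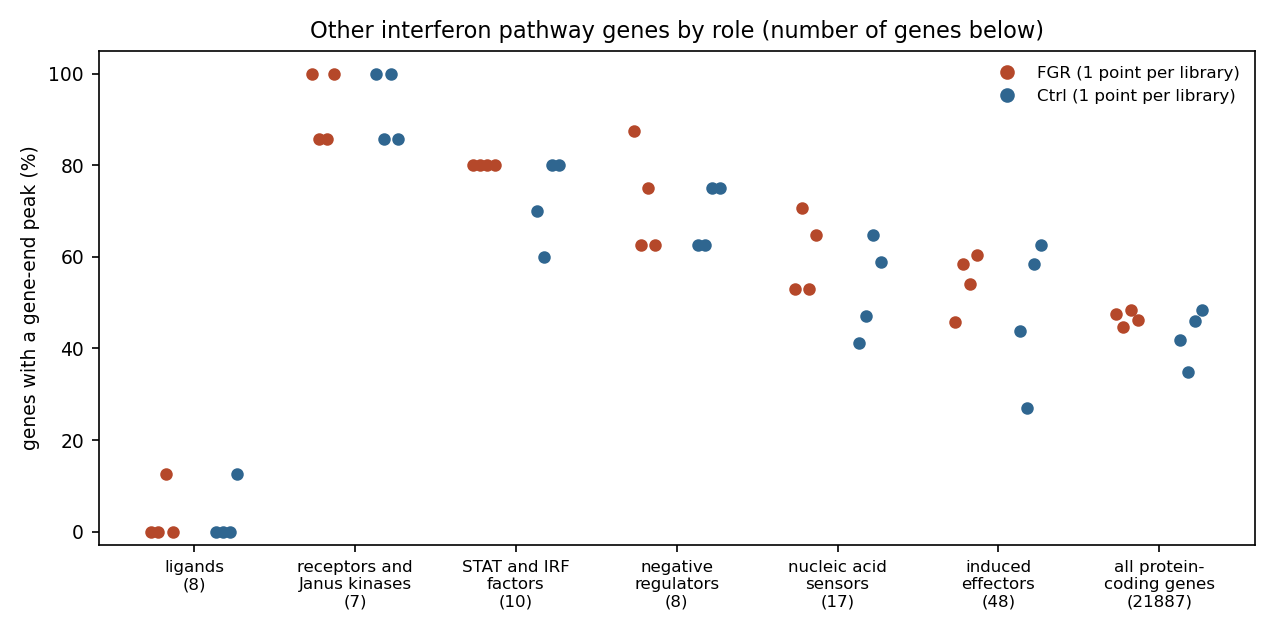
Percent of the genes of each role with a gene-end peak, 1 point per library, FGR (red) left of Ctrl (blue), with the number of genes below each role and all protein-coding genes at the right. Receptor and Janus kinase genes lie between 85.7% and 100% in all 8 libraries, ligands between 0% and 12.5%.

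The strongest gene-end peaks of the longer list were at Stat3, with a mean percentile of 99.2 over the 8 libraries, and at Ifngr1, a chain of the interferon gamma receptor, with 97.8. Jak1, the kinase bound to Ifnar2, had 93.5, and Mavs, the mitochondrial adaptor of the RNA sensors, had 90.5. The phosphatase gene Ptpn2 had 90.2, and B2m, the light chain of MHC class I, had 88.7. Of these 6 loci limma tested 5, and 0 passed. The log2 difference was 0.79 ± 0.24 at Jak1, with an adjusted p of 0.135 by limma, and -0.62 ± 0.34 at Stat3, with an adjusted p of 0.284.

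Between FGR and Ctrl, 28 of the 98 genes had a gene-end peak in more FGR libraries and 9 in more Ctrl libraries. That is 28.6% and 9.18%, against 16.5% and 5.5% of all genes. Both shares depend on how many genes had the peak in some but not all libraries, which were 40 of the 98 and 5685 of all 21887 genes. Of those 5685, 3602 had it in more FGR and 1203 in more Ctrl libraries. No gene of the 98 differed by 3 libraries or more in either direction. After adjustment 0 of them passed Fisher's exact test, and 0% of the 5685 genes tested did. With 4 against 4 libraries no gene could pass, because the smallest p of Fisher's exact test over all genes, 0.0286, is too large to survive adjustment. At an unadjusted p under 0.05 there were 42 genes over the whole table. Of 49 loci of the list that limma tested, 0 passed at an adjusted p of 0.05 and 36 lay below 0 on the log2 scale, with a median of -0.21 against -0.28 for all loci. Per library, 54.1%, 60.2%, 57.1% and 61.2% of the 98 genes had a gene-end peak in FGR libraries 1 to 4, against 48.0%, 38.8%, 61.2% and 62.2% in Ctrl libraries 1 to 4. Ctrl 1 and 2 were thus the lowest of the 8, as they were for all genes, and Ctrl 3 and 4 reached the FGR values.

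The promoters with a peak in every library also differed in base composition. The density of CpG pairs, which marks the promoters of broadly used genes, was counted in the window of 300 bases. There were 26 pairs at Ifnar1, 22 at Stat2, 18 at Ifnar2 and 9 at the first start of Irf9, all 4 with a peak in all 8 libraries. There were 7 pairs at Irf7, 6 at Rsad2, 6 at Isg15 and 1 at Ifit3, of which Rsad2 alone had a peak in any library. Over all promoters, the median was 24 pairs (quartiles 18 and 31) in the 5176 with a peak in all 8 libraries and 4 pairs (quartiles 1 and 8) in the 8335 with none. Among promoters with 0 to 5 pairs 1.12% had a peak in every library, among those with 6 to 15 pairs 17.7%, with 16 to 25 pairs 52.3% and with 26 or more 59.7%. Irf9 thus had a peak overlapping the window in all 8 libraries, at a CpG count where 17.7% of promoters did. Its summits, however, lay 63 to 343 bp after the start, past the end of the window in every library. In FGR 2 the peak began at 55604031 and the window ended at 55604034. The count for Irf9 therefore does not describe the bases at the centre of its peak. The second annotated start of Irf9, with 1 pair, had a peak in 3 of 4 FGR and 4 of 4 Ctrl libraries.

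**Figure D5:**
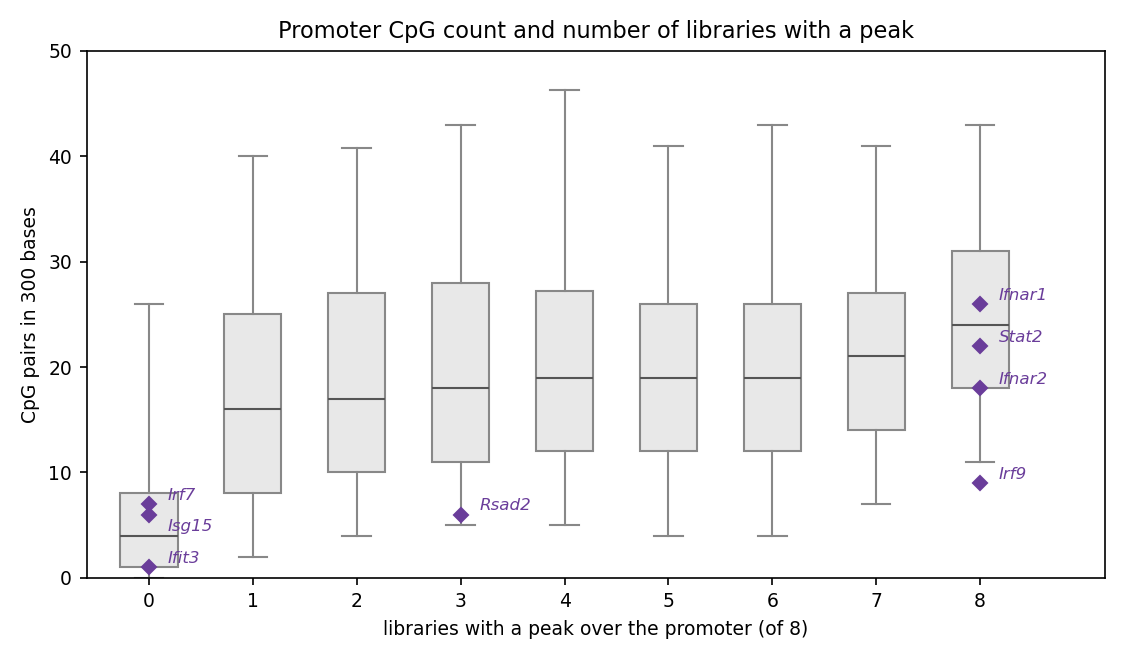
CpG pairs in the promoter window of 300 bases against the number of libraries with a peak over it; boxes span the quartiles of all promoters with the median as a line, whiskers the 5th and 95th percentiles, and diamonds are 8 of the 9 genes. Ifnar1, Stat2 and Ifnar2 lie in the box of promoters with a peak in all 8 libraries, Irf9 below it, and Irf7, Isg15 and Ifit3 in the box of those with none.

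Across promoters, whose base composition also differs, response element cores went with fewer peaks. Of promoters that hold a core, 20.4% had a peak in all 8 libraries and 57.4% had none, against 29.9% and 47.3% of promoters without a core. The other motifs searched were the gamma-activated site, TTCNNNGAA, and the PU.1 core, GAGGAA or TTCCTC, which belongs to a factor of the macrophage lineage. The gamma-activated site was present in 7.83% of all promoters and at Ifnar1 and Ifnar2 among the 9 genes. The PU.1 core was present in 27.5% of all promoters and at Ifnar1, Irf9 and Ifit3. At Ifit3 a copy of the PU.1 core at -149 to -144 overlaps a response element core.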

How the data were processed

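Tn5 cutting and library preparation used a Vazyme Hyperactive ATAC-Seq kit, per the labels' protocols. Per the submitters' processing notes, the tools were MACS2 2.2.7.1 and DiffBind 3.12.0 besides Bowtie2 2.4.5, Trim Galore 0.6.5 and SAMtools 1.3.1, and the build was mm10. The sources used here do not give whether reads were shifted, deduplicated or filtered by a blacklist. Each of the 8 libraries has its own deposited peak list, so peaks were called per library. The authors' deposited score is for display and was not used. The authors' deposited fold is a ratio of summit pileup to local background. Its excess is given by the authors' −log10 p and −log10 q, and −log10 q ranked peaks within a list. These values describe peaks and were not tested.

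Pileup and background were recovered from the deposited fold and −log10 p, within 0.001 for 100% of peaks. Read totals were not used here. Gene positions came from a RefSeq table of GRCm38.p6 and promoters from RefSeq. Peaks sharing at least 1 bp were merged into regions. Peaks per locus, where the mean was 2 or more, were tested by limma (3.58.1, R 4.3.3, trend fitted), and calls with two-sided Fisher's exact tests. Both were adjusted by Benjamini-Hochberg over the features tested, which for limma were 8037 loci. For Fisher's exact test they were the 43395 regions and, separately, the 5685 genes called in some but not all libraries. Other steps used Python 3.11.15. Scripts were tested on simulated data. All 9 members are named, with the regions called in all 8 libraries or differing by 3 libraries or more, some neighbours, and up to 6 pathway genes with the highest mean percentile. Members and lists were chosen with earlier results of these data known. Alternatives covered peak threshold, list length, flank, window, pseudocount, filter, scaling, deposit set, pairs and left-out libraries.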

Additional observations from a re-analysis of the deposited data

Results flagged for a closer look

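Within groups of 4 libraries, a value far from the other 3 was found in 8 of 51 groups examined, 20 of peak counts and 31 of folds. Chance marks about 1 in 20 groups, and small counts tie easily, so that a difference of 1 peak is enough. The Ifnar1 locus held 7 peaks in FGR 3 and 5 in each other FGR library. The Stat2 locus held 4 peaks in FGR 3 and 3 in each other FGR library. In Ctrl it held 2 peaks in Ctrl 2 and 3 in each of the others. The Irf9 locus held 2 peaks in Ctrl 1 and 3 in each other Ctrl library. The Irf7 locus held 1 peak in Ctrl 3 and 0 in the others. The Isg15 locus held 3 peaks in FGR 1 and 2 in each other FGR library, and the Ifit3 locus held 3 in FGR 3 and 2 in the others. Over the 9 loci FGR 3, the longest list, held 32 peaks and the other FGR libraries 25 or 26. The change in the FGR minus Ctrl difference between deposit sets did not pass limma at the 5 tested loci, with a smallest adjusted p of 0.698, which with 2 libraries per group and set does not show that the sets are alike. At Ifnar1 set 2 minus set 1 was 0.58 ± 0.44 (SE) on the log2 scale.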

How the results depend on the processing

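No member locus passed limma in any setting, with a lowest adjusted p of 0.176, at Irf9 without Ctrl 4. Over all loci limma called 1, against 20 with lists of equal length, 3 with a flank of 10 kb, 57 with a pseudocount of 1, 11 without division by list length and 16 without a filter. It called 0 without Ctrl 1 and 2, 0 in set 2 alone, 9 in set 1 alone, 0 with pairs averaged and 0 to 15 leaving out each library, the highest without Ctrl 3. With the replicate number as a block 141 loci were called, 54 higher and 87 lower in FGR, and again 0 members. In a check of pairing, same-numbered FGR and Ctrl libraries correlated at -0.02, 0.10, 0.07 and 0.03, against -0.12 to 0.11 for differently numbered ones. Such values do not show whether the numbers pair the libraries. Without division the log2 difference was 0.42 at Ifnar1, 0.30 at Ifnar2, 0.21 at Stat2, 0.12 at Irf9 and 0.18 at Isg15. Ifnar1 also turned to 0.0807 without Ctrl 1 and 2, 0.12 in set 2 alone and 0.0696 without Ctrl 2, with a range of -0.28 to 0.07 leaving out each library. Ifnar2 turned to 0.27 and Stat2 to 0.36 with lists of equal length, and Ifnar2 to 0.0479 without Ctrl 1 and 2. Member regions with a peak in every FGR and in no Ctrl library numbered 1, against 5 in set 1 alone, 0 with −log10 q of at least 5, 0 with lists of equal length and 1 to 2 leaving out each library, the higher without FGR 4 or without Ctrl 4. The share of libraries with a gene-end peak differed by at least 0.75 between groups at 1 of the 9 genes, Rsad2. This count was 0 in set 2 alone and 2 in set 1 alone, where Rsad2 and Usp18 each had a share difference of 1. It was 0 with −log10 q of at least 5, 0 with lists of equal length and 0 to 1 leaving out each library. The lower count came without FGR 1, 2 or 3, where the share difference at Rsad2 was 0.667. The difference in mean peaks over the 9 loci was 7.5, against 0 with lists of equal length and 5.67 to 8.67 leaving out each library. Per 10000 peaks it was -0.75, against -3.19 with a flank of 50 kb, -1.86 in set 1 alone and -1.22 to -0.0929 leaving out each library. It turned to 0.359 without Ctrl 1 and 2, 0.368 in set 2 alone and 0.421 with −log10 q of at least 5. The causes were not tested. Depth can be judged from the recovered background alone, with the limit given above, and a weak site can go uncalled.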
